A study of Mus musculus with 2 samples.

Results

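LSD1 (lysine-specific demethylase 1, encoded by Kdm1a) is a flavin-dependent enzyme that takes methyl groups off histone tails, and the peaks it left in the later introns of protein-coding genes are described here. A later-intron peak is one whose midpoint lay more than 2.5 kb from every protein-coding transcript start, outside every annotated exon, in no gene's first intron, and inside intron 2 or beyond of the longest protein-coding transcript of a gene (GENCODE M21, mm10). Of 59175 peaks in the list, 12132 met this rule, or 20.5% (95% Wilson interval 20.2 to 20.8%). The other peaks lay within 2.5 kb of a start (17272), between genes (17383), in first introns (6293) or elsewhere (6095). The cells were primary brown adipocytes of C57BL/6 N mice, genotype Control, at passages 2-3, taken to day 10 of differentiation. The differentiation medium held T3 at 1 nM, isobutylmethylxanthine at 500 µM, indomethacin at 125 nM, rosiglitazone at 1 µM, dexamethasone at 1 µM and insulin at 850 nM. One library was precipitated with an LSD1 antibody made in the submitters' laboratory, and one input library was made without antibody from cells of the same description. The peak list is a single one with no replicate, so no difference below has a test, and the intervals given cover counting error only. Peaks do not measure expression, so the cell type label was not checked.

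LSD1 does not itself read a specific DNA sequence. It is brought to DNA in corepressor complexes, chiefly with CoREST proteins and histone deacetylases, by transcription factors such as REST, which silences neuronal genes outside the nervous system through a long and highly specific DNA element. Introns beyond the first hold few promoters, so peaks in them are mostly read as distal elements such as enhancers and silencers. In brown fat, LSD1 is known as a regulator of the oxidative and thermogenic programme.

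The sequences shown first carry the motifs and the high scores described further on, and are taken from the GRCm38.p6 assembly. The 2 highest-scoring later-intron peaks with a REST consensus in the central 200 bp lay in intron 4 of 6 of Wdr25 (score 997) and in intron 2 of 6 of Lingo1 (score 515). Capitals mark the REST site, which both hold on the minus strand.
Wdr25, chr12:108994736-108994935, + strand: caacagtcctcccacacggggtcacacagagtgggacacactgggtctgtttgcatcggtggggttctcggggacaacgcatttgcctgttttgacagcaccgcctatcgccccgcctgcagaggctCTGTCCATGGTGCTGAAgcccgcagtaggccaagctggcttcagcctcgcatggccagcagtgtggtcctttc
Lingo1, chr9:56738328-56738527, + strand: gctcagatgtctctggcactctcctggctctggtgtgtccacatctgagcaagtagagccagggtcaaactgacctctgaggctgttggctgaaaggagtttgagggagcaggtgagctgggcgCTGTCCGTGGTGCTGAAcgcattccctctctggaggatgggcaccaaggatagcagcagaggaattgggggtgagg

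The same site was also found in peaks of other genes. To show how the letters line up, the next lines give REST sites inside later-intron peaks, in order of peak score and leaving out those of Wdr25 and Lingo1, read along the strand of the site. Capitals mark the site of 17 bases, in which all positions were fixed apart from a pair in the middle, and 12 bases flank it on either side.
Crhr2, chr6:55108495-55108535, + strand: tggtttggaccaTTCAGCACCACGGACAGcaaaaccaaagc
Vrk3, chr7:44770183-44770223, + strand: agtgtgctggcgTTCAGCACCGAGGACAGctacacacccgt
Vrk3, chr7:44770391-44770431, + strand: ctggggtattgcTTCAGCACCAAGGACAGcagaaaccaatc
Rbfox3, chr11:118584944-118584984, minus strand: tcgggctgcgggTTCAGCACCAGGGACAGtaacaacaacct
Nova2, chr7:18951587-18951627, minus strand: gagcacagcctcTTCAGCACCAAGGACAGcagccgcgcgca
Cacna1h, chr17:25400626-25400666, minus strand: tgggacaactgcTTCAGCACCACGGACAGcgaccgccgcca
Slc12a5, chr2:164979927-164979967, minus strand: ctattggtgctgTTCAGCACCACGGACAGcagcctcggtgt
Kirrel3, chr9:34913170-34913210, minus strand: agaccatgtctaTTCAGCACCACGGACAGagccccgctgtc
Shank2, chr7:144294447-144294487, minus strand: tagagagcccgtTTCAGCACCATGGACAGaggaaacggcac

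For contrast, the 4 sites of later introns that lay farthest from any peak of the list are shown in the same way. They carry the same fixed letters.
Dcx, chrX:143904863-143904903, + strand: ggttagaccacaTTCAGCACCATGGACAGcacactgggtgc
Dock2, chr11:34448079-34448119, minus strand: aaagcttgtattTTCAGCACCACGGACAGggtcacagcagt
Rbfox1, chr16:7201990-7202030, minus strand: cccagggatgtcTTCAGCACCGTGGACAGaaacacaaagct
Lingo2, chr4:35885128-35885168, + strand: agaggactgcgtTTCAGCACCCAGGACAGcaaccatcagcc

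The next set shows AP-1 and CTCF sites. The AP-1 family of Fos and Jun factors reads the letters TGANTCA. The architectural zinc finger protein CTCF reads a longer element that is given by name only. The AP-1 peaks are those with the highest scores of all with that motif, in intron 2 of 4 of Timp3 (score 1668) and intron 9 of 14 of Itgb5 (score 1208). The CTCF examples lie in later introns of Gucy2g (score 385) and Sh3pxd2a (score 355). Capitals mark the motif.
Timp3, chr10:86339565-86339764, + strand: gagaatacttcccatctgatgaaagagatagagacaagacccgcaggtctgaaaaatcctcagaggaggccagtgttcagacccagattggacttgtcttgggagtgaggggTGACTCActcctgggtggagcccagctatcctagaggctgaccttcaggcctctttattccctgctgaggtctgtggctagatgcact
Itgb5, chr16:33916714-33916913, + strand: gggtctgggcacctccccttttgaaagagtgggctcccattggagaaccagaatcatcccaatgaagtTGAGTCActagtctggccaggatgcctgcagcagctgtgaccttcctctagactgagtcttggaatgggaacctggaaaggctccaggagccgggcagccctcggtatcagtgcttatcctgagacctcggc
Gucy2g, chr19:55218517-55218716, + strand: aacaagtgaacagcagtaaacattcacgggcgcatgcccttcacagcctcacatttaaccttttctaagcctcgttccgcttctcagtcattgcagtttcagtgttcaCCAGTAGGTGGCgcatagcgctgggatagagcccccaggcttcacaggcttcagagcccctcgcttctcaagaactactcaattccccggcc
Sh3pxd2a, chr19:47337932-47338131, + strand: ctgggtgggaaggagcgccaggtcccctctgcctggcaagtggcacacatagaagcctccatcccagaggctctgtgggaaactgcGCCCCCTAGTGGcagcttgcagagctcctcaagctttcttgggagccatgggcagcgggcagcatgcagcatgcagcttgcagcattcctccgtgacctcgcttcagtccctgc

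The last set shows the centres of high-scoring peaks, with CpG dinucleotides in capitals. The peak of intron 19 of Zc3h7a had 34 CpGs in 200 bp and a GC content of 77.5%. The peak of intron 2 of Erich1 had 1 CpG and a GC content of 40.5%. The peak of intron 2 of Cdk8 had 20 CpGs.
Zc3h7a, chr16:11143984-11144183, + strand: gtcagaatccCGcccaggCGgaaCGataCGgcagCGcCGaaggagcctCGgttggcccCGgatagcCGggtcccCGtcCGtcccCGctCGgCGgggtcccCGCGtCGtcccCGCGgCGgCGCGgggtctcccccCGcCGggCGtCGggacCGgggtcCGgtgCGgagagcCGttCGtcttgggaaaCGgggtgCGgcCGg
Erich1, chr8:14072453-14072652, + strand: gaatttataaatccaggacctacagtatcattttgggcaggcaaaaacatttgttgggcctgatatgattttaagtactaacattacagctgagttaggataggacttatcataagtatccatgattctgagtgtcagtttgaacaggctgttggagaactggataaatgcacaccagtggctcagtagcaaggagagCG
Cdk8, chr5:146260969-146261168, + strand: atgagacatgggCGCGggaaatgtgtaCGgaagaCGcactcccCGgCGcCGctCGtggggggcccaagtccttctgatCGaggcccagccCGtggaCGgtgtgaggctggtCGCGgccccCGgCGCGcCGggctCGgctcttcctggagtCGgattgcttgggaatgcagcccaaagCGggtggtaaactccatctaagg

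Of the 23 motifs searched, REST sites lay under LSD1 most often in later introns. The sequence eligible under the rule, 629 Mb in all, held 45 exact REST sites, and 20 of them, 44.4% (95% Wilson interval 30.9 to 58.8%), lay wholly inside a peak. LSD1 peaks covered 1.31% of the same bases, so the share of REST sites in peaks was 33.9 times the share of bases. The 20 sites lay in 19 peaks of 19 genes, since the intron 12 peak of Vrk3 (score 551) held a pair. The sites lay near the middle of their peaks, at a median of 72.5 bp and at most 386 bp from the midpoint, and 13 were within the central 200 bp.

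Many of the genes with such a peak are textbook neuronal genes. Rbfox3 (intron 4, score 395) encodes the neuronal splicing factor also known as NeuN. Nova2 (intron 3, score 254) encodes another neuronal splicing regulator, and Slc12a5 (intron 7, score 224) encodes the neuronal potassium-chloride cotransporter. Lingo1 encodes a neuronal membrane protein that restrains myelination, Kirrel3 (intron 3, score 208) encodes a synaptic adhesion protein, and Shank2 (intron 16, score 202) encodes a postsynaptic scaffold. Cacna1h (intron 2, score 242) and Kcnab2 (intron 3, score 77.3) encode a calcium channel and a potassium channel subunit. Crhr2 (intron 3, score 694) encodes a receptor for corticotropin-releasing hormone peptides. Others have no such standing: Kynu (intron 8, score 120) encodes kynureninase, Scel (intron 4, score 82.2) encodes sciellin of cornified epithelia, and the set also held Wdr25, Ccdc33 (intron 10, score 131) and Tmem232 (intron 13, score 78.1). The remaining sites in peaks lay in Megf11 (score 153), Ap3b2 (score 152), Shisa6 (score 148) and Npcd (score 93.6). These labels were attached after the genes had been found, so they describe and do not test.

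The scores of the 19 peaks ran from 77.3 to 997, and 4 of the 19 were below the median of all later-intron peaks. A REST site in the central 200 bp was held by 0.0659% of the later-intron peaks in the lowest score quartile and 0% in the next. The share was 0.0659% in the one above and 0.297% in the highest. These shares rest on 13 peaks in all. Not every host promoter was marked. Among the hosts whose site lay in the central 200 bp, Wdr25, Rbfox3, Nova2, Kynu, Scel and Tmem232 had no peak within 1 kb of any protein-coding start. Shisa6 had one with a score of 1790.

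The other 25 REST sites lay outside peaks, at a median of 26435 bp from the nearest one. Only 2 of these were within 1 kb of a peak, in Nkain1 (240 bp) and Tcte1 (930 bp), and 18 were beyond 10 kb. They included sites of neuronal genes: the synaptotagmin gene Syt2, the splicing factor gene Rbfox1, the doublecortin gene Dcx and the sodium channel gene Scn10a. Of the 45 sites, 2 were on the X chromosome, in Dcx and Gripap1, and both lay outside peaks. The exact letters were searched, so sites with a changed letter were not counted on either side.

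**Figure D1:**
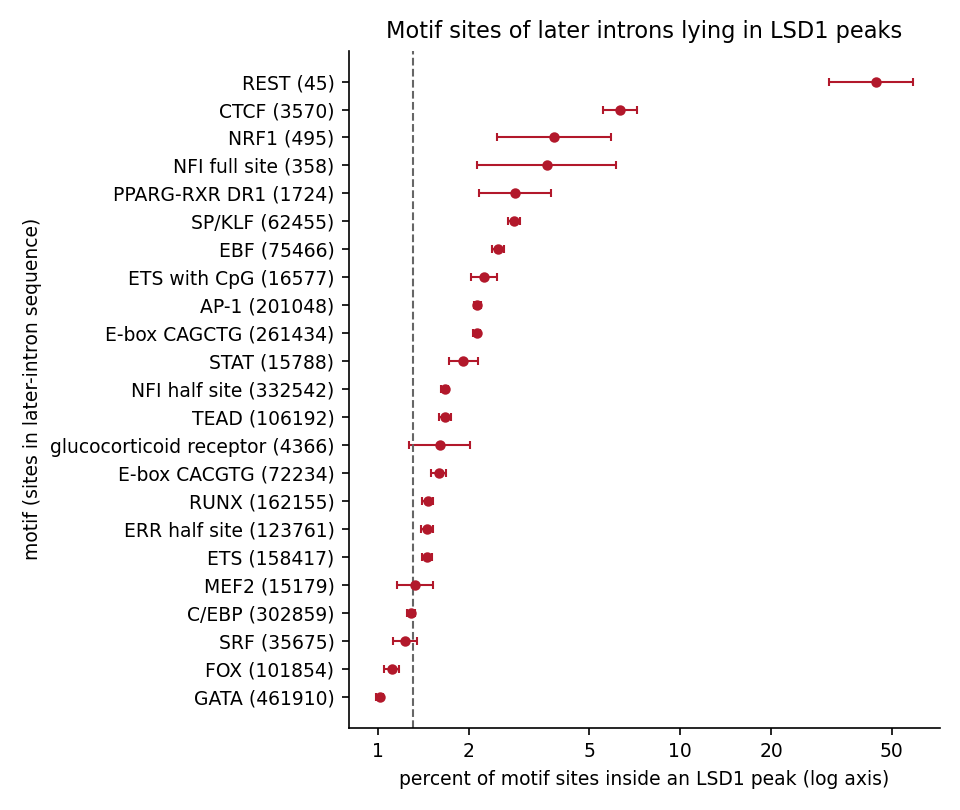
Percent of the sites of each of 23 motifs in later-intron sequence that lie wholly inside an LSD1 peak, on a log axis, with 95% Wilson intervals; the number of sites is beside each name and the dashed line marks the 1.31% of bases covered by peaks. REST stands alone at 44.4%, followed by CTCF at 6.33%, and GATA is lowest at 1.01%.

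CTCF came next. Of 3570 CTCF sites in the eligible sequence, 226 lay in a peak, or 6.33% (5.58 to 7.18%), 4.83 times the share of bases. The central 200 bp held the motif in 82 later-intron peaks, 0.676%, against 0.381% of first-intron peaks and 0.851% of intergenic peaks. All 3144903 windows of 200 bp that tile the eligible sequence held it at 0.107%, and at 0.160% when the windows were weighted to the GC content of the peaks. The ratio to the weighted windows was 4.22 at 200 bp. To all windows, without weighting, the ratio was 6.33 at 200 bp, 7.63 at 100 bp and 5.79 at 400 bp.

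The AP-1 motif stood in the centre of 1298 later-intron peaks, 10.7% (10.2 to 11.3%), against 5.65% of windows of the same GC content, a ratio of 1.89. The share was 10.8% in first-intron peaks, 11.8% in intergenic peaks and 4.47% in peaks near starts. It was 9.26%, 9.50%, 10.3% and 13.8% from the lowest to the highest score quartile of later-intron peaks. Peaks with the motif had a median score of 108.0, against 99.42 for those without. At the level of sites, 2.14% of 201048 AP-1 sites lay in peaks.

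The motifs of adipocyte factors differed among themselves. The C/EBP letters TTGCNNAA, read by the factors that start adipogenesis, were in 9.26% of later-intron peaks, against 7.35% of GC-weighted windows, a ratio of 1.26. To all windows, without weighting, the ratio was 1.05 in 200 bp, 1.03 in 100 bp and 1.02 in 400 bp. Of 302859 C/EBP sites 1.29% lay in peaks, close to the 1.31% of bases, a comparison not weighted for GC content. The element that PPARG, the master regulator of fat cells, binds together with RXR was in 16 peaks, 0.132%, against 0.0649% of GC-weighted windows. At the level of sites, 49 of 1724 such elements, 2.84% (2.16 to 3.74%), were in peaks. The nuclear factor I letters TTGGCA were in 13.4% of peaks, against 10.1% of GC-weighted windows. The TEAD letters CATTCCA, the DNA end of the Hippo pathway, were in 4.34%, against 3.21%. The EBF letters CCCNNGGGA were in 3.54%, against 3.06% of GC-weighted and 1.88% of all windows. Of their single sites 2.49% lay in peaks, a share not weighted for GC content.

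The SP/KLF and GATA letters came closer to the GC-weighted windows than to all windows. The SP/KLF letters CCGCCC were in 3.70% of peaks, against 1.79% of all windows but 3.38% of GC-weighted windows. The GATA letters AGATAA were in 10.5%, against 13.1% of all windows and 9.62% of GC-weighted ones. The full glucocorticoid receptor element was in 17 peaks, 0.140%, and in 0.148% of GC-weighted windows. The nuclear respiratory factor 1 element was in 2 later-intron peaks, 0.0165%, against 2.22% of peaks near starts. All motifs were searched on both strands, and a match is a description of the letters, not a binding site. The remaining short motifs had ratios between 0.908 and 1.45. They were the ETS letters AGGAAGT (5.53% of peaks, ratio 1.08 to GC-weighted windows) and CCGGAAG (0.907%, ratio 1.03), the FOX letters TGTTTAC (2.56%, 1.05), the RUNX letters TGTGGTT (5.51%, 1.19), the ERR letters AAGGTCA (4.40%, 1.14), the E-boxes CAGCTG (13.1%, 1.24) and CACGTG (2.51%, 0.908) and the STAT letters TTCCNGGAA (0.742%, 1.45). The MEF2 and SRF elements were in 0.470% and 1.06% of peaks, with ratios of 1.70 and 1.12. The full NFI element was in 6 peaks.

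Later introns held fewer peaks per base than first introns and more than intergenic sequence. The density was 19.3 peaks per Mb (18.9 to 19.6, exact Poisson interval) in later introns, 31.0 (30.3 to 31.8) in first introns and 12.5 (12.3 to 12.7) between genes. Later introns thus had 0.622 times the density of first introns and 1.54 times that of intergenic sequence. With the density of each GC class of later introns carried over, first introns had 1.55 times and intergenic sequence 0.747 times the number so given.

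The density fell with distance from transcript starts, but slowly over a long stretch. It was 28.4 peaks per Mb at 2.5 to 5 kb, 24.0 at 5 to 10 kb, 22.4 at 10 to 25 kb, 21.7 at 25 to 50 kb, 19.2 at 50 to 100 kb and 11.3 beyond 100 kb. First introns went lower in larger steps, with 45.3, 38.6, 34.1, 26.5, 22.0 and 12.5 peaks per Mb in the same bins, so the gap between the 2 kinds of intron was largest near starts. Intergenic sequence had 29.2 per Mb in the nearest bin and 6.77 in the farthest. The median score of later-intron peaks stayed between 97.91 and 101.9 over all these bins. The median later-intron peak lay 28807 bp from the nearest protein-coding start, with quartiles at 12178 and 65456 bp.

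**Figure D2:**
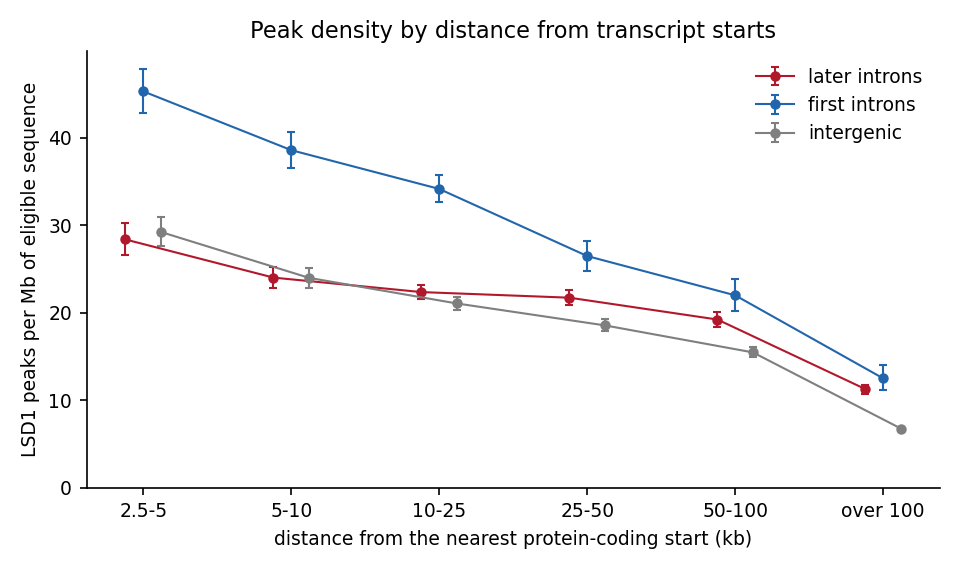
LSD1 peaks per Mb of eligible sequence in later introns, first introns and intergenic sequence by distance from the nearest protein-coding start; bars are 95% Poisson intervals. Later introns lie between 28.4 and 11.3 per Mb, below first introns in each bin, with overlapping intervals beyond 100 kb.

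Just inside the distance limit, at 2.5 to 3 kb, 201 later-intron peaks had a density of 29.1 per Mb and a median score of 105.35. Just outside it, at 2 to 2.5 kb, 239 peaks that met the rest of the rule had a density of 34.8 per Mb and a median score of 97.88.

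Later-intron peaks were small and weak next to those at promoters. Their scores, the authors' own values on a scale that no label or header states, ran from 50.06 to 1693 with a median of 100.03 and quartiles of 83.76 and 136.3. The medians were 102.7 in first introns, 101.8 between genes and 191.6 near starts. Their median width was 599 bp (quartiles 579 and 703), against 606, 601 and 833 bp. Of later-intron peaks, 282, or 2.32%, were in the top decile of the list by score (390.7 or more), against 2.69%, 3.38% and 26.5% of the other classes in the same order. None of the 100 highest peaks of the list was in a later intron. A score of 200 was reached by 1463 later-intron peaks (12.1%), 500 by 140 and 1000 by 19.

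**Figure D3:**
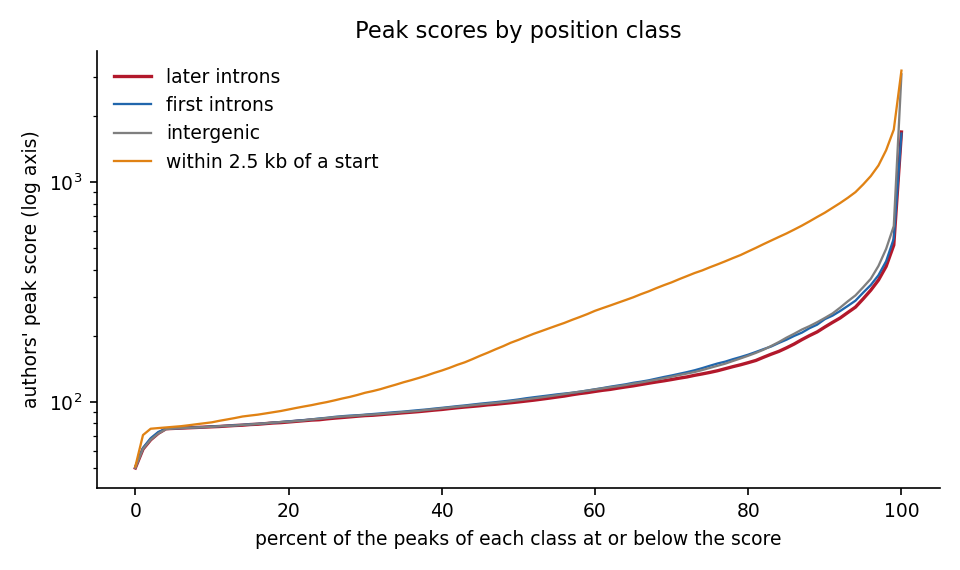
Authors' peak score on a log axis against the percent of peaks at or below it, for peaks in later introns, in first introns, between genes and within 2.5 kb of a start. The curves of the distal classes nearly coincide around a median of 100.03 in later introns, below the median of 191.6 near starts.

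Most later-intron peaks stood in ordinary, CpG-poor sequence that was richer in G and C than the introns around it. The central 200 bp had a median GC content of 47.5%, against 42.0% for all windows of eligible sequence, 48.0% for first-intron peaks, 47.0% for intergenic peaks and 59.0% near starts. The density rose with each GC class, from 2.60 peaks per Mb below 30% GC to 81.1 per Mb at 60% or more. CpG-rich centres, with a CpG ratio above 0.6 and a GC content above 50%, made up 136 peaks, 1.12%, against 0.366% of windows and 49.3% of peaks near starts. Centres that were mostly repeats made up 8.61% of peaks, against 22.0% of windows. The highest score quartile had more CpG-rich centres (2.47%) and fewer repeats (5.24%) than the lowest (0.692% and 9.69%). GC content can also act on how well fragments are amplified and sequenced, and its part in these densities was not tested.

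Within introns the density was lowest far from exons. It was 20.4 per Mb within 500 bp of an exon, 21.6 at 2.5 to 5 kb from one and 15.5 beyond 10 kb. In introns of 10 kb or more, equal stretches from the upstream to the downstream end had 17.5, 19.7, 19.4, 19.3 and 19.2 peaks per Mb, the lowest at the upstream end. By the order of the intron there was a slope: 24.0 per Mb in intron 2, 21.6 in intron 3, 18.5 in introns 4 and 5, 18.2 in introns 6 to 10, 16.1 in introns 11 to 20 and 14.1 from intron 21 on. The ratio to the number given by GC content fell over the same order to 0.735 from intron 21 on, against 1.25 in intron 2. Edges of 1732 peaks (14.3%) reached into an exon, although the midpoint did not.

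A small group sat by starts of transcripts not annotated as protein-coding, which include noncoding isoforms of protein-coding genes. Within 1 kb of such a start lay 718 later-intron peaks, 5.92% (5.51 to 6.35%), against 3.97% of the eligible sequence. The density was 28.7 per Mb there and 18.9 elsewhere. CpG-rich centres made up 4.04% of them, against 0.937% of the remaining later-intron peaks, and the median scores were 103.7 and 99.76.

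By the length of the host intron, whose median was 18278 bp, the density was 23.8 per Mb in introns of up to 1 kb, 18.02 at 1 to 2.5 kb, 22.4 at 25 to 50 kb and 13.3 above 100 kb. The ratios to the number given by GC content were 0.854, 0.826, 1.20 and 0.818 in the same order. By that ratio the shortest introns were not the highest.

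The peaks came in groups. Of 138924 introns with eligible sequence, 8018 held a peak, and 1884 of them held 2 or more, which together took 49.4% of all later-intron peaks. The nearest other peak of the list was at a median of 8004 bp, and 37.7% of later-intron peaks had one within 5 kb. Intron 2 of Fgfr2, a fibroblast growth factor receptor gene, held the most, 32 peaks, but it is 2908817 bp long, with 1.31 Mb eligible. This span comes from the longest annotated transcript, on which the count of Fgfr2 rests here and in the order of genes given further on. More tightly packed were intron 7 of Rad51b, a DNA repair gene, with 26 peaks (78.9 per Mb), and intron 3 of Cacna1c, the gene of a calcium channel, with 19 (70.5 per Mb). Intron 3 of Tcf7l1, a Wnt pathway transcription factor gene, had 18 (137 per Mb), and intron 2 of Lrmda had 19 (34.7 per Mb).

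Of 15998 protein-coding genes with eligible sequence, 4695 hosted a later-intron peak, or 29.3% (28.6 to 30.1%). Of these, 2440 had 1 peak, 1626 had 2 to 4, 463 had 5 to 9 and 166 had 10 or more. The 166 genes held 2410 peaks, 19.9% of all. Hosting followed gene size: 6.16% of genes with up to 5 kb of eligible sequence had a peak, and 85.9% of those with more than 250 kb.

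The genes with most peaks were Lrmda (42), Rad51b (35), Fgfr2 (32), Lpp (27), Adamts2 and Slit3 (25 each), Rbms3, Dlc1 and Zfhx3 (24 each) and Nfia (23). Lpp encodes an adhesion protein of the actin skeleton, and GC content gave 8.60 peaks for its 517 kb of eligible sequence. Adamts2, which encodes the protease that trims procollagen, had 130 peaks per Mb, against 5.89 peaks given by GC content. Slit3 encodes a secreted guidance cue, Dlc1 encodes a GTPase-activating protein with 69.0 peaks per Mb, and Nfia encodes a nuclear factor I protein with 71.8 per Mb. Fgfr2, with 32 peaks against 32.7 given by GC content, and Zfhx3, a homeobox factor gene with 24 against 19.01, were near that number. The scores of these peaks were ordinary, with medians from 93.21 in Lpp to 128.6 in Dlc1.

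**Figure D4:**
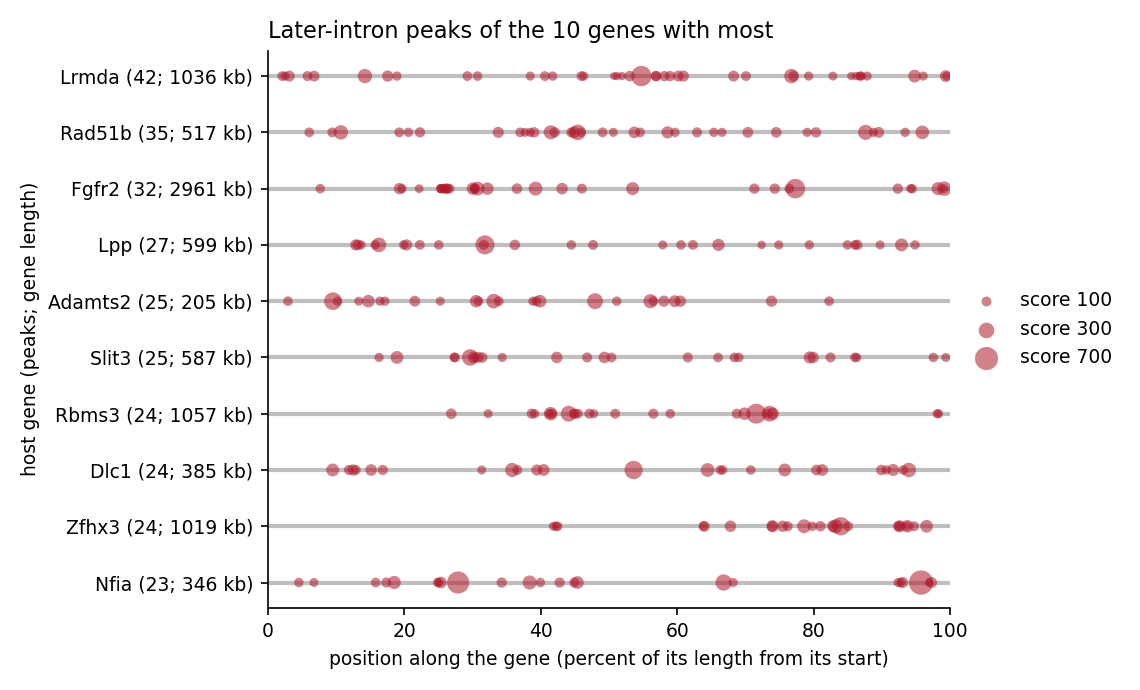
Position of later-intron peaks along the 10 genes with most, in percent of gene length from the gene's start, with the area of a point growing with the authors' score; grey lines are the genes. Lrmda, at the top, has 42 peaks and Nfia, at the bottom, 23, and the peaks run along the gene bodies in groups.

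Per base, the densest genes with 5 or more peaks were Ehd2 (6 peaks, 482 per Mb), Mxra7 (5, 450 per Mb), Rara (7, 421 per Mb), Lasp1 (7, 331 per Mb) and Bcl2l1 (14, 308 per Mb). Ehd2 encodes a protein of caveolae, which are abundant in fat cells, Rara encodes retinoic acid receptor alpha, Lasp1 encodes an actin-binding protein and Bcl2l1 encodes the survival factor BCL-XL. GC content gave 0.471 peaks for Ehd2, 0.506 for Mxra7, 0.875 for Rara, 0.781 for Lasp1 and 1.14 for Bcl2l1.

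Genes with an LSD1 peak at their promoter also had more later-intron peaks. The density was 23.0 per Mb (22.6 to 23.5) in 10030 genes with a peak within 1 kb of a protein-coding start, against 11.2 per Mb (10.8 to 11.7) in 5968 genes without, a ratio of 2.05. Relative to the number given by GC content the ratio was 1.82. From the lowest to the highest quartile of promoter score the density was 17.8, 22.4, 25.1 and 26.6 per Mb. The order held in each class of gene size: 29.4 against 15.5 per Mb in genes with up to 25 kb of eligible sequence, 26.4 against 14.5 at 25 to 100 kb, 25.9 against 13.0 at 100 to 250 kb, and 15.02 against 5.98 above 250 kb.

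The X chromosome was nearly empty. It had 32 later-intron peaks in 28.5 Mb of eligible sequence, 1.12 per Mb (0.767 to 1.58), against 20.2 per Mb on the autosomes, and GC content gave 378 peaks for it. The autosomes ranged between 15.9 per Mb on chromosome 1 and 27.4 on chromosome 11. The X was low in the whole list too, with 273 of 59175 peaks. The labels do not state the sex of the animals, and the cause was not tested. The Y chromosome had 3 later-intron peaks.

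The gene lists below are described by how many of their eligible members hosted a later-intron peak, beside 29.3% of all genes, and by the ratio of observed peaks to the number that GC content and gene size together gave. Of the 497 entries, the symbols of 3 were not in the annotation. The lists with the highest ratios were matrix genes, TGF-beta, Hippo and Wnt signalling genes, adipogenic factors, and actin and adhesion genes. Of 33 extracellular matrix and stromal progenitor genes 24 were hosts, with 147 peaks, 57.3 per Mb and a ratio of 2.70. Adamts2 led with 25 peaks, followed by Col4a2, a basement membrane collagen gene, with 22 and Adam12, a metalloprotease gene of stromal progenitors, with 19. Col5a2, a fibrillar collagen gene, had none in 59.4 kb of eligible sequence.

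TGF-beta, Hippo and Wnt signalling genes had 21 hosts of 31, 68.3 peaks per Mb and a ratio of 2.61. Tcf7l1 had 20 peaks, Tgfbr3, the gene of the TGF-beta coreceptor betaglycan, had 19, and Wwtr1, the gene of the Hippo effector TAZ, had 8, while the BMP receptor gene Bmpr2 had none in 48.8 kb. Actin cytoskeleton and adhesion genes had 22 hosts of 30 and a ratio of 2.34. Lpp had 27 peaks, Palld (palladin) had 15 and Itgb5 (integrin beta 5) had 9, with a highest score of 1208, while Rock1 had none.

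Adipogenic transcription factors and cofactors had 16 hosts of 24, 63.5 peaks per Mb and a ratio of 2.42. Nfia had 23 peaks with a highest score of 779 and Tcf7l2, a Wnt effector gene, had 19, while the coactivator gene Ncoa2 had none in 128 kb. Insulin and growth factor signalling genes had 21 hosts of 29 and a ratio of 2.07. Among them, the Rab GTPase-activating gene Tbc1d1 had 11 peaks, and Rptor, the gene of the mTORC1 subunit raptor, had 10. The close relative of Tbc1d1, Tbc1d4, had none in 57.0 kb. Genes of the glucocorticoid response and the clock had 13 hosts of 24 and a ratio of 1.96, led by Zbtb16 (13 peaks), Fkbp5 (10 peaks), the glucocorticoid-induced chaperone gene, and Rora (9 peaks), while Clock itself had none in 71.3 kb.

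The metabolic and thermogenic lists were nearer to the background. Lipid storage, lipogenesis and lipolysis genes had 13 hosts of 35 and a ratio of 1.48, with 12 peaks in the lipoprotein receptor gene Lrp1, 8 in the monoglyceride lipase gene Mgll and 4 in the elongase gene Elovl6. The fatty acid transporter gene Cd36 had none. Beta-adrenergic and cyclic AMP genes had 22 hosts of 29 and a ratio of 1.30. Most of these peaks per gene were in the phosphodiesterase gene Pde4d (22 peaks in 1037 kb), the CREB coactivator gene Crtc3 (8) and the anchoring protein gene Akap13 (7), while Pde10a had none. Brown fat identity and thermogenic genes had 10 hosts of 26 and a ratio of 1.18, led by Ebf1 (19 peaks), Prdm16 and Ebf2 (10 each). Ryr2, a calcium release channel gene, had none in 352 kb. Fatty acid oxidation and mitochondrial genes had 10 hosts of 31, 14 peaks in all and a ratio of 0.774. No member of that list had more than 2, the number in Mfn1, Cpt1a and Oxct1, and the complex I gene Ndufs4 had none. LSD1 and corepressor complex genes had 10 hosts of 30 and a ratio of 0.937, with 7 peaks in Hdac9, 4 in Hdac4, 4 in Phf21a, and none in Mta3.

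The lists of other cell types had ratios below 1, but the counting intervals of the leukocyte and endothelial ratios reach above 1. Neuronal genes had 26 hosts of 32 and were long, with a median of 398 kb of eligible sequence, but 7.03 peaks per Mb and a ratio of 0.608. Ank3 had 14 peaks, Dlg2 had 13 in 1857 kb, Ctnna2 had 12 and Gabra2 had none. Macrophage and leukocyte genes had 14 hosts of 29 and a ratio of 0.815, with 4 peaks in Prkcb, 3 in Cx3cr1 and none in Ikzf3. Endothelial genes had 10 hosts of 22 and a ratio of 0.737, with 4 peaks each in Pecam1, Stab2 and Erg and none in Ptprb. Liver and pancreas genes had 5 hosts of 26 and a ratio of 0.442, with 2 peaks in Cftr, 1 each in Slc10a1 and Nkx6-1 and none in Cps1. Skeletal muscle genes had 12 hosts of 25 and a ratio of 0.630, led by Ldb3 with 8 peaks and Pax3 and Neb with 4 each. That ratio rests on Dmd, which is on the X and had none in 2036 kb: on the autosomes it was 0.909. The ratios of the other lists moved little when genes of the X were left out, and the largest change among them was to 2.02 on the autosomes, against 1.96, for the glucocorticoid and clock list.

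**Figure D5:**
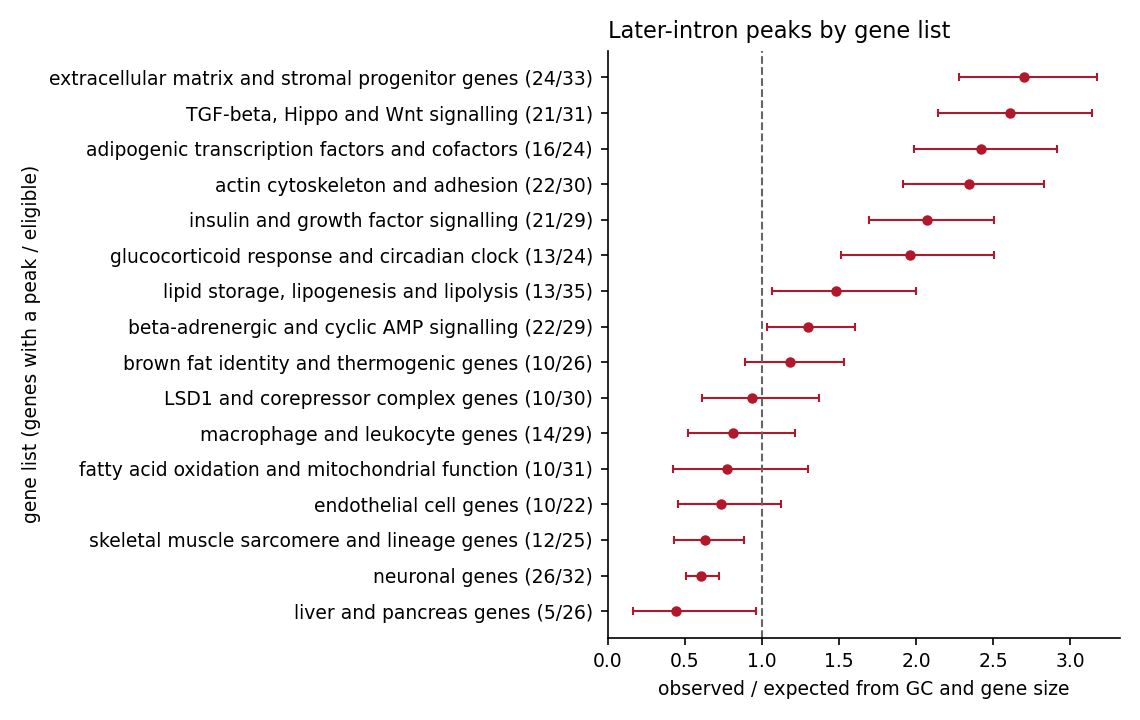
Later-intron peaks of 16 gene lists as the ratio of observed peaks to the number given by GC content and gene size, with 95% Poisson intervals of the observed number; genes with a peak and eligible genes are beside each name, and the dashed line marks a ratio of 1. The ratio is highest at 2.70 for matrix and stromal genes and lowest at 0.442 for liver and pancreas genes.

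Among regulators of brown fat, Prdm16, which encodes a determinant of the brown lineage (chromosome 4, 154316125 to 154636873, minus strand), had 10 later-intron peaks with scores from 64.45 to 154.3. Of these, 8 lay in intron 2, and 5 of the 8 stood between 154493449 and 154500293. GC content gave 7.33 peaks for its eligible sequence. Ebf2, the gene of an early B-cell factor that marks brown preadipocytes (chromosome 14, 67233292 to 67430918), had 10 peaks with scores from 75.78 to 145.2, 8 of them in intron 7, against 4.14 given by GC content. Zfp423, which encodes a preadipocyte factor that holds back the thermogenic programme, had 8, with scores from 78.38 to 745.0, and the highest was in intron 5 (chromosome 8, 87718545 to 87720159). The median score of the Zfp423 peaks, 187.8, was above those of Prdm16 (102.0) and Ebf2 (95.56).

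Pparg had 4 later-intron peaks, with scores of 85.86, 88.37, 130.5 and 81.34 from intron 2 to intron 7, below its promoter peak at 401. Ppargc1a, the gene of the coactivator PGC-1 alpha, had 3, at 85.24, 85.03 and 78.60, and Nrf1, the gene of nuclear respiratory factor 1, had 2, at 99.98 and 79.18. In Pparg, Ppargc1a and Nrf1 each later-intron peak scored below the promoter peak of the gene. Kdm1a itself had 2, in intron 10 (97.91) and intron 2 (89.23), both above its promoter score of 87.53 but below the later-intron median of 100.03. The Kdm1a peaks covered 89 and 60 bp of exon, and the Nrf1 peak at 79.18 covered 177 bp. Insr, the insulin receptor gene, had 5, all in intron 2, with scores of 204.7, 101.5, 185.1, 79.18 and 75.52. Hsd11b1 had no eligible sequence under the rule.

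The highest-scoring later-intron peak of all was in intron 19 of Zc3h7a, an RNA-binding protein gene (score 1693), followed by Timp3, the gene of an inhibitor of matrix metalloproteases (1668), Erich1 (1645), the gene of the DNA-binding protein Arid3a (1629) and Cdk8, the gene of the Mediator kinase (1612). Among those that followed were Cblb, a ubiquitin ligase gene (1466), Rgl1 (1447), Itga2b, the gene of a platelet integrin (1319), Itgb5 (1208), Arid3b (1157) and Camta1 (1152). Of the words of 32 bases in the Zc3h7a peak, 52.7% occur more than once on the chromosomes, and 40.1% of those in the Cblb peak do. In the others named here this share was at most 7.40%, in Cdk8, and 0% in Timp3 and Arid3b. Over all later-intron peaks the median share was 0%, and 122 peaks were above 50%. The count covers assembled chromosomes only, from which most copies of the ribosomal RNA genes are missing. The GC-rich centres of the Zc3h7a and Cdk8 peaks may resemble ribosomal RNA. Words shared with an annotated ribosomal RNA region were counted, but no ribosomal RNA unit with these bases was found in the sequence used. The resemblance was therefore not settled, and the scores of both peaks are to be read with this limit. Whether reads from other copies add to the scores of Zc3h7a, Cblb and Cdk8 was not tested. The Itga2b peak lies in an intron of 91 bp and covers 813 bp of exon, so it is a later-intron peak by its midpoint only. The Zc3h7a peak covers 57 bp of exon. Its midpoint lies 41 bp from an exon and 41 bp from the start of a transcript not annotated as protein-coding.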

How the data were processed

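The deposited file lists, for 1 LSD1 library of primary brown adipocytes, each peak's chromosome, start, end, name and a score, which is the value the authors deposited. Per the labels' protocols the build was mm10 and the aligner Bowtie2. The submitters' processing notes also list MACS 1.41, with no role. How the input was used, the filters on reads, the threshold for peaks, the aligner's version and the score's scale are not given in the sources used here. Depth is unknown, as the list has neither counts nor summits.

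Peaks were placed by midpoint against GENCODE M21 on GRCm38.p6 (Python 3.11.15, numpy 2.4.6, pandas 2.3.3, scipy 1.17.1, numba 0.67.0, matplotlib 3.10.9). Starts were taken as counted from 0 in the file and are printed counted from 1. Eligible sequence is every base at which a midpoint would satisfy the rule, gaps left out. A peak's host is the smallest later intron that holds it. The number given by GC content multiplies the later-intron density of each class of 5 percentage points, measured in windows of 200 bp, by the eligible sequence of a gene or region. The number given by GC content and size also scales this to all genes of the same size class. The exact letters of 23 motifs were searched on both strands, in the central 200 bp of peaks, in windows that tile the eligible sequence, and as single sites. Shares of single sites in peaks were set beside all eligible bases, with no weighting for GC content. A host promoter is marked if a peak lies within 1 kb of a protein-coding start. Words of 32 bases were counted on chromosomes 1 to 19, X and Y. The functions were tested on simulated data.

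Shares carry Wilson and densities exact Poisson intervals at 95%. No test was run, since there is 1 library. The members and the lists were chosen with earlier results of these data known. Genes are named by a rule: the 12 highest peaks, the 10 genes with most peaks and the 5 densest with 5 or more, in each list the 3 members with most peaks and the one with the largest eligible sequence among those with none, 10 regulators picked by name, and the 2 highest peaks of each motif shown. A few genes that this rule names are not reported here. The genes with REST sites were added after the values were seen. Sequences of 1 chromosome are not shown, so the CTCF examples are the next highest.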

Additional observations from a re-analysis of the deposited data

How the results depend on the processing

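No paired analysis was possible because the list comes from 1 library and no result comes from a test. Of 95 values recomputed under other settings, 55 were put down as the same and 40 as moved. Apart from peak counts, the same means a move smaller than the counting interval or spread of the reported value. The 55 include peak counts that differ from the reported 12132 by more than counting error. These counts were 12871 and 11155 with limits of 1 kb and 5 kb from starts. With first introns of every protein-coding transcript left out the count was 10437, and with the whole peak outside exons 10400. With a limit of 1 kb or 5 kb from starts, the density was 19.8 and 18.8 peaks per Mb, and the share of hosting genes was 30.8% at 5 kb. With first introns of every protein-coding transcript left out, the density was 18.6 per Mb, the share of hosts 27.9% and the promoter ratio 1.95. Among peaks with a score of at least 100 there were 6074 peaks, 9.66 per Mb, with a median width of 680 bp, GC content of 48.5%, 19.2% of genes hosting and AP-1 in 12.02%. At 200 or more there were 1463 peaks, 2.33 per Mb, with a median width of 996 bp, GC content of 50.5%, 6.74% of genes hosting, AP-1 in 15.04% and a promoter ratio of 1.94. With the whole peak outside exons, the density was 16.5 per Mb, the share of hosts 24.6% and the promoter ratio 2.18. The AP-1 share was 5.55% in the central 100 bp and 19.8% in 400 bp, which follows from the window's size. Over whole peaks the GC content was 46.7%. Chosen after seeing the data were the autosomes alone (20.2 per Mb, 30.6% of genes hosting, promoter ratio 1.83) and the promoter ratio relative to GC content (1.82). The direction of the promoter ratio held under each of these settings. The ratio of REST to GC-weighted windows, 46.1 in 200 bp windows, rests on 13 peaks and 41 windows. To all windows, without weighting, the REST ratio was 112 in 100 bp, 82.2 in 200 bp and 50.1 in 400 bp windows. The cause of the other moves was not tested. The unknown depth and single library limit all values.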
